A study of Homo sapiens with 3 samples.

Results

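The proteasome degrades proteins that carry ubiquitin chains. Its barrel-shaped 20S core is built from rings of alpha and beta subunits, and the beta subunits PSMB5, PSMB6 and PSMB7 hold the proteolytic sites. The 19S cap recognises and unfolds substrates with a ring of ATPases, and other caps, inhibitors and assembly chaperones act on the core. Interferon gamma induces the immune subunits PSMB8, PSMB9 and PSMB10, which take the places of PSMB5, PSMB6 and PSMB7 in cells that prepare peptides for antigen presentation.

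The genes described here were found by a rule on their names, which uses no measured value. Every gene name that began with PSMA, PSMB, PSMC, PSMD, PSME, PSMF or PSMG followed by a digit was taken, and 49 of the 23284 gene names matched. PSMC3IP matched by its name but encodes HOP2, a meiotic recombination protein that is no part of the proteasome, which left 48 proteasome genes. All 49 were placed once on GRCh37, on 17 chromosomes.

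The RNA came from 293T, an established line of human embryonic kidney origin. The cells transiently expressed dCas9-VP64, in which a Cas9 that no longer cuts DNA is joined to the activator VP64. They received a mock sgRNA, sgL1ASP #1 or sgL1ASP #3. The 2 sgL1ASP guides direct the activator to the antisense promoter (ASP) of the LINE-1 retrotransposon, and the mock cells also carried dCas9-VP64. There was 1 library per condition from cells of 1 line, so no difference below has a replicate check, an SD or a p-value. The time between transfection and RNA extraction for these libraries was not given in the sources used here.

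Expression was measured as FPKM, the number of mapped fragments scaled to the exon length of the gene and to library size, so levels can be compared between genes as well as between libraries. Comparisons between libraries rest on how library size was set, which was not given in the sources used here. The depth was estimated from the spacing of the lowest values at 10400000, 10300000 and 8700000 reads for mock, sgL1ASP #1 and sgL1ASP #3, the order in which 3 values are given from here on. All 7 markers listed for 293T cells were above 0 in every library, and their summed FPKM was 953, 1048 and 1013. Most of that sum was VIM, at 807, 904 and 862. The kidney markers were low, with PAX2 at 0.522, 0.654 and 0.658 and LHX1 at 1.48, 1.76 and 1.63. The immune markers PTPRC, CD3E and LYZ, the thymic regulator FOXN1 and the testis genes DAZL and SYCP1 were listed at 0 in all 3 libraries. Of the lists for other cell types, the erythroid one (HBB listed at 0, and HBA1) differed most between libraries, at 0.259, 1.31 and 2.80 FPKM, and its part in the values below was not tested. LINE-1 itself is not among the gene names, so no targeted gene could be used to check the labels. In bulk RNA, fewer cells that express a gene and less RNA per cell cannot be told apart.

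Most proteasome genes were expressed far above the typical gene. Of the 49, 44 had a mean FPKM of at least 1 over the 3 libraries and 43 a mean of at least 10. The median of the 44 was 67.7, 68.6 and 70.6 FPKM, against 12.2 in each library for the 12830 genes with a mean of at least 1. The 5 below a mean of 1 were the immune subunits PSMB8 and PSMB9, the testis subunit PSMA8, the thymus subunit PSMB11 and the ATPase PSMC1. The 48 proteasome genes summed to 4052, 4092 and 4076 FPKM, which was 0.654%, 0.619% and 0.605% of all FPKM in mock, sgL1ASP #1 and sgL1ASP #3. The sum over all genes was itself higher in the sgL1ASP libraries, at 619903, 661449 and 673483.

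**Figure D1:**
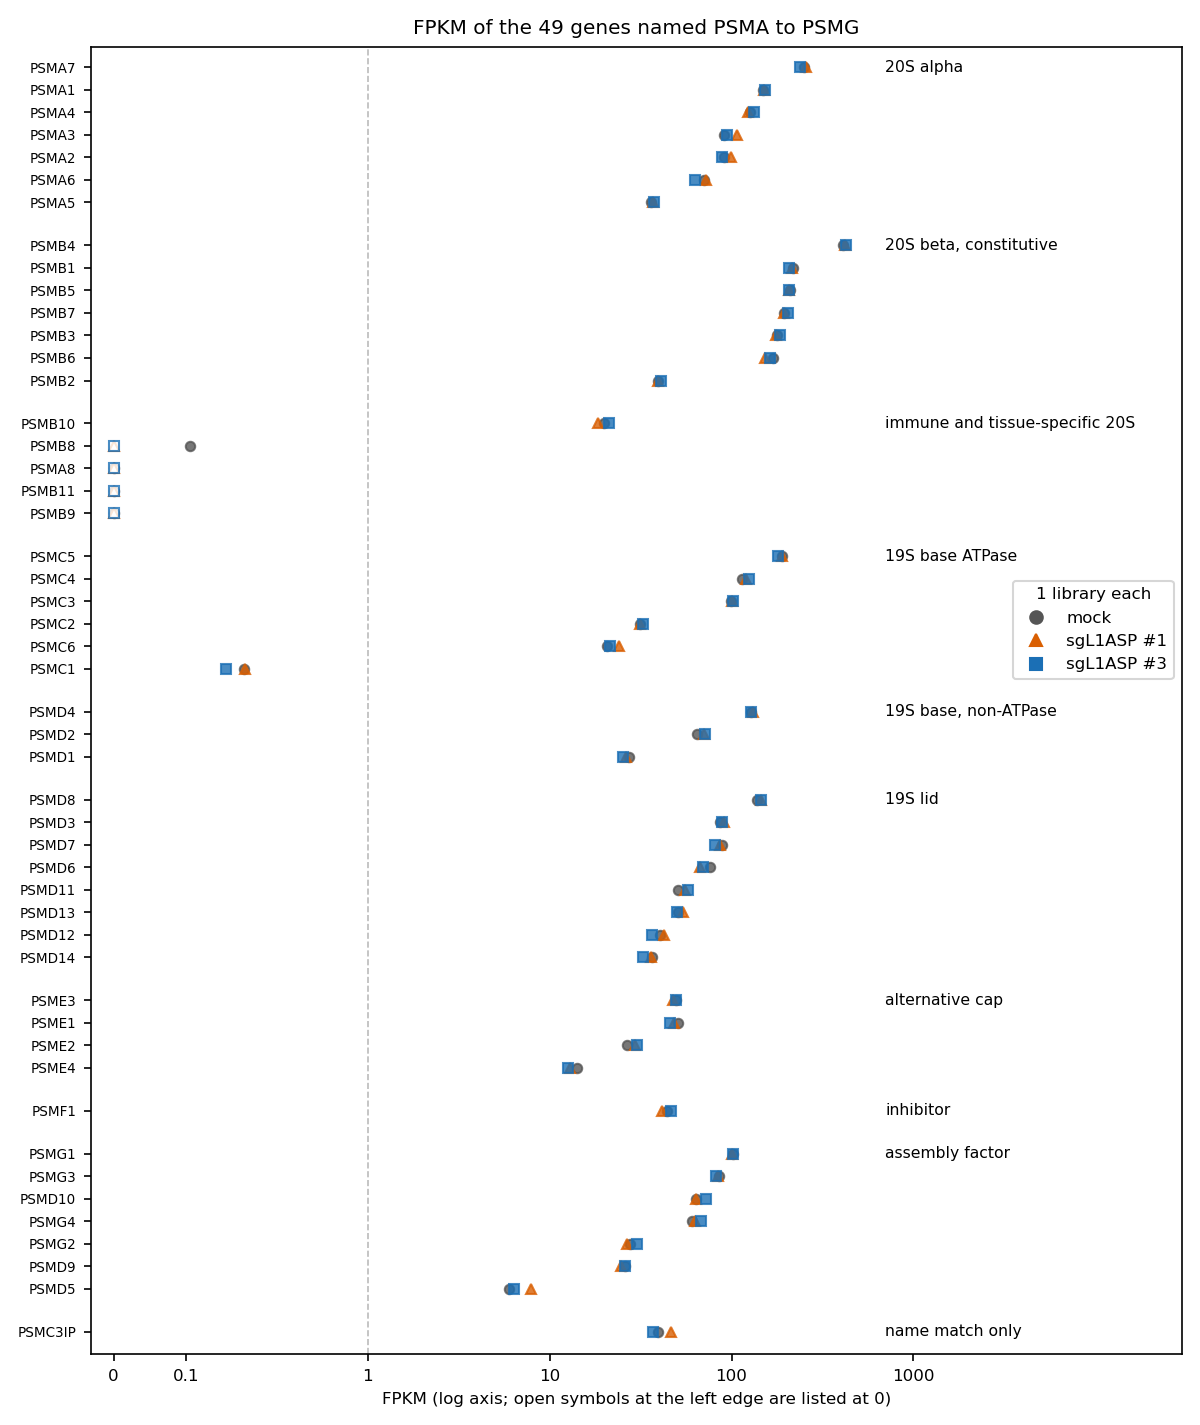
FPKM of each of the 49 genes (log axis) in mock (circles), sgL1ASP #1 (triangles) and sgL1ASP #3 (squares), 1 library each, grouped by role and ordered by mean level. The 3 symbols of most genes overlap, and PSMA8, PSMB8, PSMB9, PSMB11 and PSMC1 lie to the left of the dashed line at an FPKM of 1; open symbols stand for values listed at 0.

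The promoters of the immune subunits and of the interferon-inducible PA28 cap were read first, because they show which of these genes carry the letters that interferon response factors bind. The windows come from RefSeq promoters on GRCh38.p14, from 250 bases before to 50 bases after each start, which held 53 promoters of 43 of the 49 genes. The core of the interferon response element, GAAA followed after any 2 bases by a second GAAA, was searched on both strands and was found in 7 of the 53 (13.2%) and in 3.57% of all 35116 promoters. The 7 genes were PSMA4, PSMB4, PSMB8, PSMB10, PSME1, PSME2 and PSMG4. In 5 of them the match read GAAAGCGAAA, a form picked out after these windows had been seen and present in 35 promoters in all (0.0997%). The windows of these 5 and of PSMB4 are given 5′ to 3′ on the strand of the gene, with the match in capitals, and TTTCGCTTTC is the same element read on the other strand.
PSMB8: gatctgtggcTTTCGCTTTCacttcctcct
PSMB10: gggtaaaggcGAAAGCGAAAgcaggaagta
PSME1: gccctaccgcTTTCGCTTTCccttcgcggt
PSME2: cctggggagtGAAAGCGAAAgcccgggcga
PSMG4: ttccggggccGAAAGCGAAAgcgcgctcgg
PSMB4: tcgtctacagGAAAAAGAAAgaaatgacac

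These windows lie at chr6:32844032-32844061 (minus strand) for PSMB8, chr16:67936852-67936881 (minus) for PSMB10, chr14:24136189-24136218 (plus) for PSME1, chr14:24146619-24146648 (minus) for PSME2, chr6:3258904-3258933 (plus) for PSMG4 and chr1:151399495-151399524 (plus) for PSMB4. No match overlapped another searched motif. The promoter of PSMB9 held no match in this window. A match describes the letters only, and the levels of its bearers in these cells ran from PSMB8, listed at 0 in both sgL1ASP libraries, to PSMB4, the highest gene of the whole family.

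The immune and constitutive forms of the catalytic beta subunits were then compared at each position of the core. The constitutive forms were far above their immune counterparts at all 3 positions and in all 3 libraries. PSMB5, the chymotrypsin-like beta5 subunit (GRCh37 chr14:23485752-23504439), had FPKM of 209, 207 and 207. Its immune counterpart PSMB8 (chr6:32808494-32812456) was at 0.105 in mock, about 1.01 reads at the estimated depth, and was listed at 0 in both sgL1ASP libraries. The 3 values of PSMB8 therefore differed by about 1 read, which this depth cannot resolve.

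PSMB6, the caspase-like beta1 subunit (chr17:4699439-4701797), had FPKM of 169, 152 and 162. PSMB9 (chr6:32811913-32827628), which replaces it in immune cells, was listed at 0 in every library. At the estimated depth a count of 0 allows, at 3 reads per library, an FPKM of up to 0.353, 0.357 and 0.422, for counting error only. None of the 75-base windows of PSMB8 or PSMB9 transcripts occurred a further time on the main chromosomes of GRCh37. Sequences outside these chromosomes were not searched, so copies there could not be found.

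PSMB10 was the exception among the immune subunits. It replaces the trypsin-like beta2 subunit PSMB7 and had FPKM of 19.9, 18.4 and 21.2. PSMB7 stood at 195, 194 and 205 FPKM, so PSMB10 was at 10.2%, 9.48% and 10.4% of its counterpart. The differences of PSMB10 between libraries, a log2 difference of -0.12 for sgL1ASP #1 to mock and 0.09 for sgL1ASP #3 to mock, were within 1 counting standard error of 0.16 and 0.17. Between the 2 sgL1ASP libraries it was -0.21 (counting SE 0.169), the largest decrease of the family in sgL1ASP #1 to sgL1ASP #3. PSMA8, the alpha subunit of testis, and PSMB11, the beta5 subunit of the thymic cortex, were listed at 0 in all 3 libraries, with 3-read limits between 0.175 and 0.216 FPKM.

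**Figure D2:**
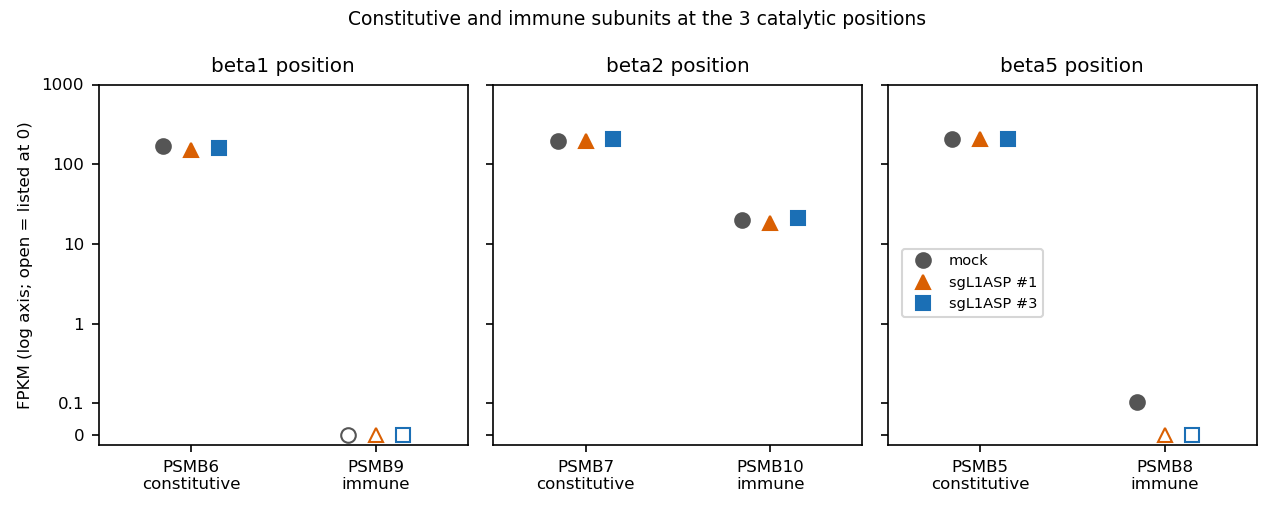
FPKM (log axis) of the constitutive and the immune subunit at the beta1, beta2 and beta5 positions in mock (circles), sgL1ASP #1 (triangles) and sgL1ASP #3 (squares), 1 library each. The constitutive subunits lie between 152 and 209 FPKM, PSMB10 between 18.4 and 21.2, and PSMB8 and PSMB9 at or near 0, with open symbols for values listed at 0.

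Genes that act with the immune subunits were partly expressed. Of the 13 genes of a list of antigen processing and interferon signalling, 10 had a mean FPKM of at least 1 and 0 of these passed 1.5-fold in any contrast, beside 3.55%, 3.8% and 3.77% of all genes with a mean of at least 1 in sgL1ASP #1 to mock, sgL1ASP #3 to mock and sgL1ASP #1 to sgL1ASP #3, which is under 1 gene in 10. B2M, the light chain of MHC class I, was the highest at 199, 217 and 208 FPKM. NLRC5, the activator of MHC class I genes, had the lowest mean of the 13, with 0.029, 0 and 0.035 FPKM. TAP1, part of the transporter that carries peptides into the endoplasmic reticulum, had 7.64, 7.33 and 7.80 FPKM. The medians of the log2 difference over the 10 genes were -0.041, 0.005 and 0.041 in the same order of contrasts.

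The 7 constitutive alpha subunits form the outer rings and gate the core. They summed to 814, 847 and 806 FPKM, log2 differences of 0.06 and -0.01 to mock. PSMA7 was the highest at 252, 257 and 237 FPKM, and PSMA5 the lowest at 35.8, 36.9 and 37.6. Although the core holds these subunits in equal numbers, their mean levels spanned 6.76-fold. PSMA3 had FPKM of 90.6, 107 and 94.8 and was highest in sgL1ASP #1, with a log2 difference of 0.25 to mock (counting SE 0.074). PSMA6 had 70.4, 72.5 and 62.9 and was lowest in sgL1ASP #3, at -0.16 to mock (counting SE 0.090).

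The 7 constitutive beta subunits summed to 1418, 1406 and 1431 FPKM, more than the alpha subunits in every library. PSMB4, the beta7 subunit, was the highest at 409, 423 and 426, and PSMB2, the beta4 subunit, the lowest at 39.5, 39.5 and 41.1, a 10.5-fold span of the means. The 3 catalytic subunits lay much closer together, with a ratio of highest to lowest of 1.24, 1.36 and 1.28. PSMB5 was the steadiest gene of this class between libraries, with a highest to lowest ratio of 1.01. PSMB6 had the largest deviation of the class, a log2 difference of -0.15 in sgL1ASP #1 to mock (counting SE 0.063).

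The 19S base contains 6 ATPases that unfold the substrate, and 5 of them had a mean FPKM above 10. The 6 summed to 456, 466 and 461 FPKM. PSMC5 (Rpt6) was the highest at 190.1, 190.0 and 179, and PSMC6 (Rpt4) was the lowest of the 5 at 20.5, 24.0 and 21.3. PSMC2, PSMC3 and PSMC4 lay between them, from 31.3 FPKM for PSMC2 in mock to 125 for PSMC4 in sgL1ASP #3.

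PSMC1 (Rpt2), which fills 1 place of the same ATPase ring, stood far below the other 5 ATPases at 0.207, 0.210 and 0.166 FPKM. With the length of its annotated canonical transcript these values came to 9.03, 9.06 and 6.06 reads. Its ratio of sgL1ASP #1 to mock, 1.01, was the ratio that equal numbers of reads give in these 2 libraries, and its ratio of sgL1ASP #3 to mock, 0.802, was 0.667 in reads. PSMC1 lies on the plus strand at GRCh37 chr14:90722871-90741773 and has 13 named pseudogenes. Of the 1246 windows of 75 bases (the read length) in its coding sequence, 1179 (94.6%) occurred exactly elsewhere in GRCh37. The pseudogene PSMC1P1 at chr3:68684856-68686175 alone held 1171 of them (94.0%), and PSMC1P9 followed with 124 (9.95%). Over the whole transcript, UTRs included, the share was 32.9%. Whether these copies have a part in the low value was not tested, and the treatment of reads with several matches was not given in the sources used here.

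No other gene of the family had as much of its coding sequence repeated. The next were PSMC6 with 29.9% of its coding windows, PSMA6 with 20.3%, PSMD4 with 14.0%, PSME2 with 8.86% and PSMD2 with 4.98%, and their mean levels lay between 22.0 and 129 FPKM. A further 3 genes, PSMA2, PSMB2 and PSMD12, had repeated windows outside the coding sequence only. The values of these genes are uncertain to the extent that reads were shared with the copies, and a named pseudogene exists for 17 of the 49.

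The other 11 subunits of the 19S cap, 3 in the base and 8 in the lid, summed to 787, 805 and 786 FPKM. PSMD8 (Rpn12) was the highest at 138, 145 and 145, and PSMD1 (Rpn2), a scaffold of the base, the lowest at 27.3, 26.3 and 25.5, a 5.41-fold span of the means. PSMD4 (Rpn10), a ubiquitin receptor, had 127, 131 and 128 FPKM. PSMD14 (Rpn11), the deubiquitinase that removes the chain, had 36.7, 35.9 and 32.8 FPKM and was lowest in sgL1ASP #3, with a log2 difference of -0.16 to mock (counting SE 0.097).

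Among the lid subunits, PSMD6 (Rpn7) and PSMD11 (Rpn6) moved apart in value. PSMD6 had 76.5, 67.0 and 69.9 FPKM, lower in both sgL1ASP libraries than in mock. Its log2 differences were -0.19 and -0.13 (counting SE 0.070 and 0.072). PSMD11 had 50.8, 55.2 and 57.4 FPKM, higher in both, with 0.12 and 0.18 (counting SE 0.046 and 0.047). PSMD12 (Rpn5) had 40.6, 42.4 and 36.5 FPKM and was highest in sgL1ASP #1 and lowest in sgL1ASP #3. The log2 difference of sgL1ASP #1 to sgL1ASP #3 was 0.21 (counting SE 0.052). That error takes a transcript of 4356 bases, and a shorter one would give fewer reads and a larger error. Both comparisons to mock use the same mock library, so a value that is high or low by chance in mock moves both the same way.

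The alternative caps and the inhibitor PSMF1 summed to 185, 180 and 184 FPKM. PSME1 and PSME2, which together form the interferon-inducible PA28 cap, had 50.9, 48.4 and 45.6 FPKM and 26.7, 29.5 and 30.1 FPKM. PSME1 was thus highest and PSME2 lowest in mock, with log2 differences of sgL1ASP #3 to mock of -0.16 (counting SE 0.110) and 0.17 (counting SE 0.161). PSME3, the nuclear PA28 gamma, had 49.2, 47.4 and 49.4 FPKM. PSME4, the PA200 cap, was the lowest of these genes at 14.1, 12.9 and 12.7. Its log2 differences to mock were -0.13 and -0.15 (counting SE 0.065 and 0.069). PSMF1, known as PI31, had 44.1, 41.4 and 46.4 FPKM.

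The assembly factors summed to 372, 370.2 and 387 FPKM. Of the chaperones of the alpha ring, PSMG1 had 102, 101 and 102 FPKM, PSMG2 27.6, 26.7 and 30.3 (a log2 difference of -0.18 in sgL1ASP #1 to sgL1ASP #3, counting SE 0.133), PSMG3 85.4, 84.0 and 82.2, and PSMG4 60.7, 62.6 and 67.9. PSMG1 and PSMG2, which act as a pair, thus differed in level, and PSMG3 and PSMG4, which form the other pair, lay closer together. PSMD10 (gankyrin), a chaperone of the 19S base, had 63.9, 63.6 and 72.1 FPKM and was highest in sgL1ASP #3, with a log2 difference of 0.17 to mock (counting SE 0.071) and -0.18 in sgL1ASP #1 to sgL1ASP #3 (counting SE 0.072). PSMD9 had 26.1, 24.6 and 26.1 FPKM.

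PSMD5 (S5b), also a chaperone of the base, was the lowest gene of the 44 and had the largest difference. Its FPKM of 5.96, 7.89 and 6.38 was highest in sgL1ASP #1. The log2 difference of sgL1ASP #1 was 0.40 to mock (counting SE 0.136) and 0.30 to sgL1ASP #3 (counting SE 0.141), while sgL1ASP #3 differed from mock by 0.10. PSMC3IP, the gene outside the proteasome, came next in sgL1ASP #1, with 39.3, 46.7 and 37.1 FPKM. Its log2 differences in sgL1ASP #1 were 0.25 to mock (counting SE 0.090) and 0.33 to sgL1ASP #3 (counting SE 0.097).

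Differences between libraries were then counted over the 44 genes with a mean FPKM of at least 1, on the scale of log2(FPKM + 0.1), which understates the change of low genes. Past 1.5-fold in sgL1ASP #1 to mock were 0 of the 44, beside 3.55% of all genes with a mean of at least 1 and 1.52% of those with a mean of at least 10. Past 1.5-fold in sgL1ASP #3 to mock were again 0, beside 3.8% and 1.52%, and in sgL1ASP #1 to sgL1ASP #3 0, beside 3.77% and 1.56%. The share at the higher mean is nearer to these genes, of which 43 reach it, and 1.52% of 44 genes is less than 1 gene. At a lower threshold, a log2 difference of 0.32 in either direction, PSMD5 alone passed in sgL1ASP #1 to mock (2.27% of the 44, beside 10.5% of all genes and 3.48% at a mean of at least 10). In sgL1ASP #3 to mock 0 genes passed (beside 10.6% and 3.14%), and in sgL1ASP #1 to sgL1ASP #3 PSMC3IP alone did (beside 10.6% and 3.11%). With all 49 genes counted and no filter, PSMB8 alone passed 1.5-fold, in sgL1ASP #1 to mock (beside 9.31% of the 23284 genes) and in sgL1ASP #3 to mock (beside 9.56%), and 0 passed in sgL1ASP #1 to sgL1ASP #3 (beside 9.77%). In all 3 contrasts 42 of the 44 stayed within 0.32 on the log2 scale.

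The median log2 difference of the 44 genes was 0.0033 in sgL1ASP #1 to mock, 0.036 in sgL1ASP #3 to mock and -0.011 in sgL1ASP #1 to sgL1ASP #3, beside 0.00085, 0.0015 and -0.0027 over all genes. Of the 44, 23 were higher and 21 lower in sgL1ASP #1 than in mock, and 25 were higher and 19 lower in sgL1ASP #3 than in mock, which is 52.3% and 56.8% higher beside 50.3% and 50.4% of all genes. With each library rescaled to a sum of 1000000, 8 of the 44 were higher in sgL1ASP #1 and 7 in sgL1ASP #3, beside 24.96% and 20.8% of all genes, so these directions rest on the scaling. Scaled by the median ratio of expressed genes, 23 and 25 were higher, the same as without rescaling. A sum gives weight to single high genes. Over all genes the log2 differences to mock reached 17.7 in sgL1ASP #1 and 16.9 in sgL1ASP #3, and -15.9 in both. The part of such genes in the sums was not tested. Of the 44 genes, the highest of the 3 values was in mock for 13, in sgL1ASP #1 for 12 and in sgL1ASP #3 for 19. The median absolute difference was 0.052, 0.076 and 0.074, and over all genes with a mean of at least 10 it was 0.070, 0.071 and 0.070. The median counting standard error of the 44 was 0.058, 0.062 and 0.061. The estimated reads behind a value of these genes ran from 144 to 5458, and the counting standard error covers no variation between cultures or libraries. Reads and errors also depend on the transcript lengths taken here, which may differ from those behind the deposited FPKM.

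**Figure D3:**
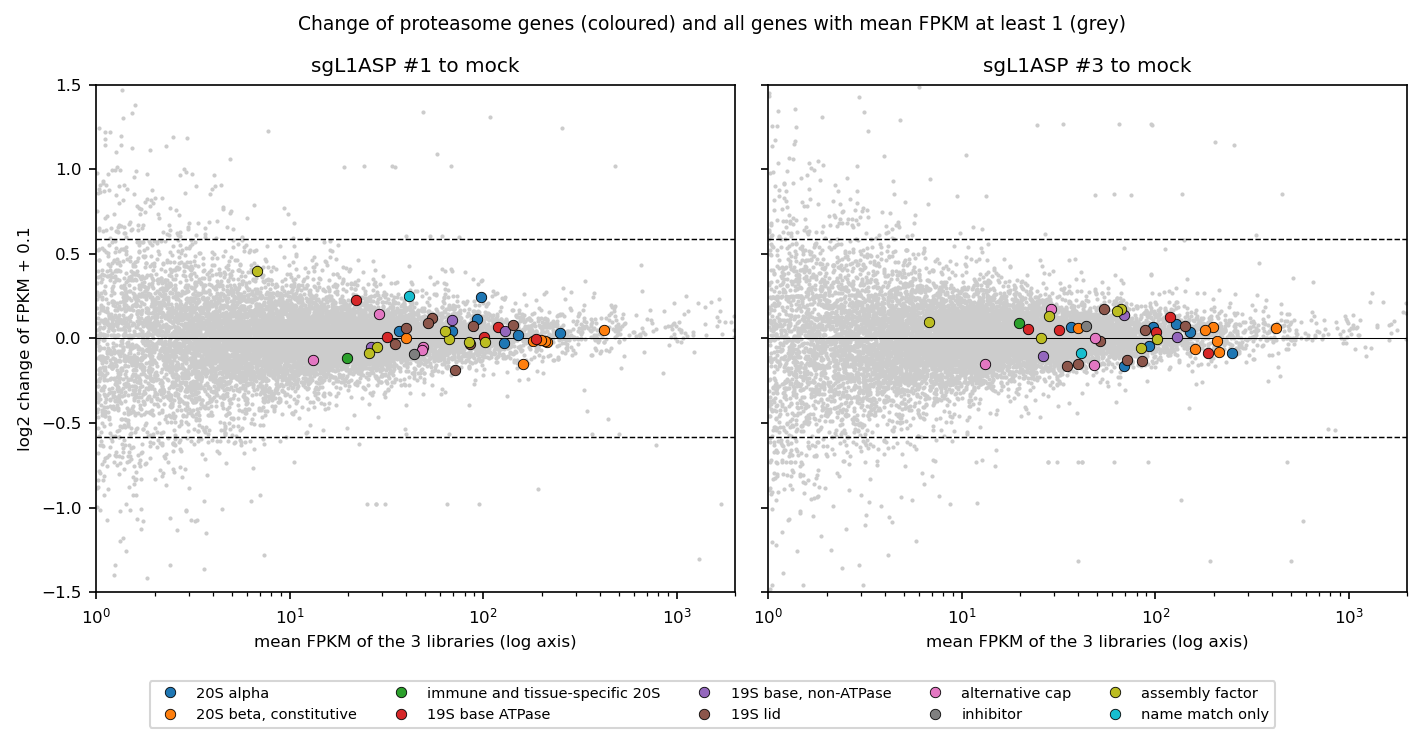
Log2 difference of FPKM + 0.1 in sgL1ASP #1 to mock (left) and sgL1ASP #3 to mock (right) against the mean FPKM of the 3 libraries (log axis), for all genes with a mean of at least 1 (grey) and the 44 genes of the family among them (coloured by role); dashed lines mark 1.5-fold, and grey points beyond the axes are not drawn. The coloured points lie between -0.19 and 0.40 on the left and between -0.16 and 0.18 on the right, inside the dashed lines.

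By role, the directions on the deposited scale were mixed. In sgL1ASP #1 to mock, 6 of the 7 alpha subunits, 7 of the 11 other 19S subunits and 4 of the 5 kept ATPases were higher, while 5 of the 7 beta subunits, 5 of the 7 assembly factors and 4 of the 5 caps and inhibitor were lower. In sgL1ASP #3 to mock the numbers higher were 4 of 7 alpha subunits, 5 of 11 other 19S subunits, 4 of 5 ATPases, 4 of 7 beta subunits, 4 of 7 assembly factors and 3 of 5 caps and inhibitor. The summed FPKM of the classes other than the immune one differed from mock by log2 values between -0.04 and 0.06 in sgL1ASP #1 and between -0.01 and 0.06 in sgL1ASP #3. Rescaled to a sum of 1000000, every one of these classes was below mock, by log2 values between -0.14 and -0.04 in sgL1ASP #1 and between -0.13 and -0.06 in sgL1ASP #3, where the median of all genes was -0.092 and -0.117.

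Genes that work beside the proteasome were also compared. Of 11 partners, 5 regulators of proteasome genes and 11 ubiquitin genes and shuttles, all had a mean FPKM of at least 1 and 0 passed 1.5-fold in any of the 3 contrasts, beside 3.55%, 3.8% and 3.77% of all genes, which is about 1 gene in 27. All but DDI2 had a mean of at least 10. The shares of all genes at that mean were 1.52%, 1.52% and 1.56%, which is less than 1 gene in 27. Among the partners, SHFM1, a small lid subunit named outside the PSM series, was the highest at 271, 307 and 267 FPKM. ZFAND5, which binds the proteasome, was the lowest at 11.5, 11.0 and 11.9.

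Among the regulators, the segregase VCP was the highest at 74.0, 75.3 and 72.6 FPKM. DDI2, the protease that activates the transcription factor NFE2L1, was the lowest at 7.33, 7.32 and 8.39. Among the ubiquitin genes and shuttles, the polyubiquitin gene UBB was the highest at 990.4, 978 and 1025 FPKM, and the activating enzyme UBA6 the lowest at 13.2, 12.2 and 11.8. The median log2 differences of the 3 lists lay between -0.048 and -0.002 over the 3 contrasts.

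TGACNNNGC, the core of the antioxidant response element that NFE2L1 can bind, was also searched in the promoters on both strands. It was found in 15 of the 53 (28.3%) and in 13.3% of all promoters. CCGGAAG, the core that ETS factors bind, was in 17 (32.1%) against 10.3%, and CCAAT in 22 (41.5%) against 34.6%. The shares over all promoters include genes that 293T cells do not express, and no more than these letters was searched.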

How the data were processed

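The authors purified total RNA from 293T cells, prepared TruSeq stranded mRNA libraries and sequenced them in 75-base single-end mode. They mapped the reads to hg19 with TopHat2 2.0.13, Bowtie2 2.2.3 and SAMtools 0.1.19, and the deposited FPKM per gene were calculated with Cuffdiff of Cufflinks 2.2.1. The gene annotation and the scaling between libraries were not given in the sources used here.

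Groups were taken from the labels. The deposited FPKM were used without rescaling, log2 differences used a pseudocount of 0.1, and counts past 1.5-fold were taken over genes with a mean FPKM of at least 1. With 1 library per condition no statistical test between conditions was made. The members and lists were chosen with earlier results of these data known. Values are given for the catalytic, immune, PSME, PSMF and PSMG genes, the highest and lowest gene of each class, the 3 largest increases and decreases of each contrast, and the highest and lowest gene of each list. Other genes of the family were named by class, or after their values were seen.

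Gene coordinates and 75-base windows were taken on GRCh37, whose sequence hg19 shares, with GENCODE 44 lifted to that build. Windows were searched only on its numbered chromosomes, X, Y and the mitochondrial genome. Promoters are those of RefSeq on GRCh38.p14. Reads per gene were estimated from FPKM, the length of the canonical transcript less a fragment of 200 bases, and a depth fitted to genes with 1 transcript over 1000 bases (955, 1001 and 954 genes). Counting errors are Poisson errors of these reads. Because the annotation of the authors was not given, the lengths may differ from theirs, and the reads and errors would then differ too. The step that counts genes past a fold was run on simulated reads that held counting error only. That run checked the calculation, not the counts reported for these libraries. Python 3.11.15 with NumPy 2.4.6, pandas 2.3.3 and matplotlib 3.10.9 was used.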

Additional observations from a re-analysis of the deposited data

How the results depend on the processing

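No paired analysis was possible because only 1 library was made per condition, and for the same reason no library was left out in turn. The alternatives were pseudocounts of 0.01 and 1, scaling by the median ratio of expressed genes or to a sum of 1000000, no filter or a mean FPKM of at least 10, and thresholds of 0.32 (log2) and 2-fold. Of 354 values recomputed for 81 results, 324 stayed within 1.5-fold, or within 0.585 for log2 values. The other 30 did not, and they include counts and ratios that left 0. Many of the 324 could hardly move, so the tally does not measure robustness. A count of 0 past 1.5-fold stays 0 past 2-fold. The median ratio factors were 0.9998, 0.9996 and 1.002 for mock, sgL1ASP #1 and sgL1ASP #3, so that scaling changed little. None of the log2 differences was past 1.5-fold, but their signs were not stable: 13 of 36 had the other sign after rescaling to a sum of 1000000 and 2 of 15 at a mean of at least 10.

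Without a filter, 1 of the 49 genes, PSMB8 with about 1 read in mock, passed 1.5-fold in sgL1ASP #1 to mock and 1 in sgL1ASP #3 to mock, beside 9.31% and 9.56% of all genes. At a log2 threshold of 0.32, 1 of 44 passed in sgL1ASP #1 to mock and 1 in sgL1ASP #1 to sgL1ASP #3. Rescaling to a sum of 1000000 shifted the median log2 difference of all genes to -0.092 in sgL1ASP #1 to mock, -0.117 in sgL1ASP #3 to mock and 0.0227 in sgL1ASP #1 to sgL1ASP #3. The medians of the 44 genes of the family, PSMC3IP included, moved with it to -0.090, -0.083 and 0.0149. From all genes these lay 0.0015, 0.033 and -0.0078, against 0.0024, 0.035 and -0.0084 without rescaling.

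The differences to mock in summed FPKM turned from 0.06 to -0.04 for the alpha subunits in sgL1ASP #1, and in sgL1ASP #3 from 0.06 to -0.06 for the assembly factors and from 0.08 to -0.03 for the immune and tissue-specific subunits. By construction that scaling also raised the summed FPKM of every class: in mock and sgL1ASP #1 to 1313 and 1280.2 for the alpha subunits, 2287 and 2126 for the beta subunits, 32.3 and 27.8 for the immune and tissue-specific subunits, 736 and 704 for the ATPases, 1270.0 and 1217 for the other 19S subunits, 298 and 271 for the caps and inhibitor, and 600.0 and 559.8 for the assembly factors.

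A pseudocount lifts ratios whose numerator is at or near 0. With 0.1 added to both, PSMB8 to PSMB5 was 0.000978, 0.000483 and 0.000483 in mock, sgL1ASP #1 and sgL1ASP #3, and PSMB9 to PSMB6 was 0.000592, 0.000657 and 0.000618. With 1 added they were 0.00525, 0.00481 and 0.00481, and 0.00589, 0.00653 and 0.00614. Depth limits the lowest genes: PSMA8, PSMB8, PSMB9 and PSMB11 cannot be ordered. The counting SE of a log2 difference reached 0.17 among the 44 genes, for PSMB10, and was between 0.68 and 0.76 for PSMC1.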
